A study of Mus musculus with 2 samples.

Results

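A pool of mouse colon cells was sorted as donor T cells during graft-versus-host disease, the attack of grafted T cells on their host. In it, 80 cell barcodes were chosen by transcripts from a set of 6 genes that macrophages express. Some of these barcodes held genes of neutrophils, dendritic cells or epithelium, so the choice is not a cell type. A barcode was taken when it held 5 or more unique molecular identifier (UMI) counts summed over Lyz2, C1qa, C1qb, C1qc, H2-Aa and Il1b, after barcodes with fewer than 500 genes or with over 10% mitochondrial UMIs had been left out. The rule was met by 80 of 5333 barcodes, or 1.50% (95% exact Clopper-Pearson interval 1.19 to 1.86%). The counts of these 6 genes chose the barcodes and are given as a description only. Intervals throughout are 95% intervals that cover counting error alone, because the 5 mice of the study were pooled into 1 library and cells of 1 pool are not replicates.

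The donor cells came from C57BL/6 mice and the recipients were irradiated Balb/c mice. Each recipient had received 5000000 bone marrow cells and spleen cells holding 800000 alpha beta T cells, and the colons were taken on day 21. Cells of the lamina propria, the connective tissue under the epithelium, were sorted for H2-Kb, a donor class I molecule, and for the beta chain of the T cell receptor (TCR), while the sample titles name CD4 T cells. A 5′ droplet RNA library and a TCR library were made from the same cDNA, and there was no group without transplantation and no second pool. The 5348 deposited barcodes held 32772424 UMIs over 31053 genes, with a median of 4795 UMIs per barcode (range 2549 to 39138), and 15 barcodes did not pass the filters.

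Macrophages are tissue phagocytes that clear dead cells and microbes, present peptides to CD4 T cells and secrete cytokines and chemokines. In the lamina propria they are renewed in large part from blood monocytes, and donor marrow gives rise to them after transplantation. Lyz2 encodes lysozyme, an enzyme that cuts bacterial cell walls, C1qa, C1qb and C1qc encode the chains of the complement starter C1q, H2-Aa encodes a chain of the class II antigen-presenting molecule, and Il1b encodes the cytokine interleukin 1 beta. A T cell is recognised by the CD3 chains (Cd3d, Cd3e and Cd3g) that carry its receptor to the surface, and by its rearranged receptor itself.

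On the mm10 build with the GENCODE M21 annotation, C1qa (chr4:136895917-136898803), C1qc (chr4:136889804-136893065) and C1qb (chr4:136880129-136886187) are neighbours on the minus strand. Lyz2 (chr10:117277331-117282321), H2-Aa (chr17:34282744-34287823) and Il1b (chr2:129364570-129371139) are also on the minus strand. Counts were summed per gene, so exons and transcripts of a gene were not told apart.

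The 6 genes were absent from most barcodes. Of the 5333 barcodes, 4832 (90.6%) had none of their UMIs, 319 had 1, 63 had 2, 29 had 3 and 10 had 4. The 80 chosen barcodes had between 5 and 447 with a median of 29, and 25 of them had 100 or more. At the edge of the rule, the 12 barcodes with 5 UMIs had CD3 in 11 and a TCR contig in 10, and the 10 barcodes with 4 UMIs had CD3 in 10 and a TCR contig in 10. Their median CD3 counts were 12.5 and 11.5 UMIs, at median depths of 3980.5 and 3627.5 UMIs. Barcodes just inside and just outside the limit were thus close in these measures.

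**Figure D1:**
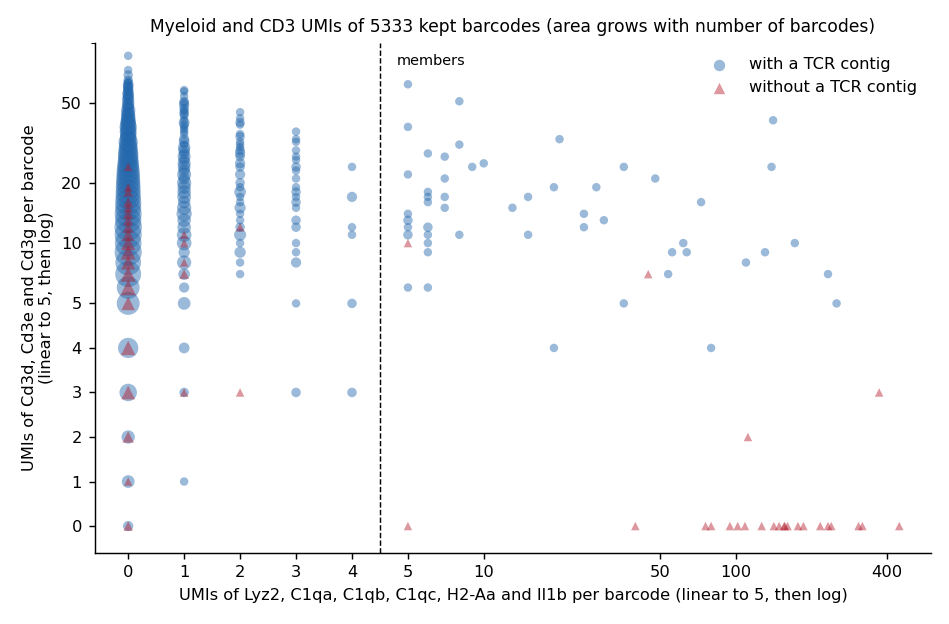
UMIs of Cd3d, Cd3e and Cd3g (y) against UMIs of the 6 myeloid genes (x) in each of the 5333 barcodes, both axes linear to 5 and logarithmic above, with marker area growing with the number of barcodes at a point. Blue circles have a TCR contig, red triangles have none, and the dashed line is the limit of 5 UMIs. To its right, 21 barcodes without CD3 and without a contig lie along the bottom, and the other 59 hold 2 or more CD3 UMIs.

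By CD3 the 80 barcodes fell into barcodes without it and barcodes with it. This split was chosen after the values were seen. The 21 CD3-negative barcodes held 5 to 447 UMIs of the 6 genes with a median of 156, and all but 1 of them held 40 or more. The 30 CD3-positive barcodes with 10 or more, called myeloid-high here, held 10 to 372 with a median of 51 beside 2 to 41 CD3 UMIs with a median of 10.5. The 29 CD3-positive barcodes with 5 to 9, called myeloid-low, held 6 to 62 CD3 UMIs with a median of 14. No chosen barcode held exactly 1 CD3 UMI, so the gap between the CD3-negative barcodes and the rest was wider than 1 molecule. Among the 5253 other barcodes the median was 15 CD3 UMIs, and 5 (0.0952%) had none.

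The classes also differed in depth. The CD3-negative barcodes had a median of 9221 UMIs and 2554 genes, the myeloid-high barcodes 8283.5 UMIs and the myeloid-low barcodes 4039 UMIs, against 4780 UMIs in the other barcodes. Median mitochondrial shares were 2.46% in the chosen and 2.15% in the other barcodes. No barcode was removed as a doublet, a droplet that caught more than 1 cell. Whether doublets, free RNA or material attached to T cells gave the barcodes that hold both myeloid and T cell transcripts was not tested.

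The TCR library, which the rule did not use, followed the CD3 counts. None of the 21 CD3-negative barcodes had a TCR contig, and a count of 0 of 21 allows a share of up to 16.1%, although the sort had asked for the TCR beta chain. A contig was found in 27 of the 30 myeloid-high barcodes (90.0%), in 28 of the 29 myeloid-low barcodes (96.6%) and in 96.7% of the other barcodes. A productive beta chain (TRB), one that can be read as protein, was found in 22 myeloid-high (73.3%) and 20 myeloid-low barcodes (69.0%), against 67.3% (66.0 to 68.5%) of the others. Over all 80 barcodes this came to 42, or 52.5% (41.0 to 63.8%). The alpha chain (TRA) went otherwise. A productive one was found in 16 myeloid-high (53.3%, 34.3 to 71.7%) and 26 myeloid-low barcodes (89.7%), against 74.15% (72.9 to 75.3%) of the others. Holding 2 or more productive TRB chains was seen in 3 of 80 (3.75%, 0.780 to 10.6%), against 4.36% of the others. These were 1 of the 30 myeloid-high and 2 of the 29 myeloid-low barcodes, too few to tell the shares apart. The TRB chain was read to similar depth, with a median of 10 TRB UMIs per chain in the chosen barcodes and 11 in the others.

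Most receptors of the chosen barcodes also occurred elsewhere in the pool. Of their 45 productive TRB chains (40 of them distinct), 41 had the same V gene, J gene and CDR3 nucleotides in at least 1 other barcode, 91.1% (78.8 to 97.5%), against 84.2% (83.0 to 85.3%) of 3774 chains of the other barcodes. In the myeloid-high barcodes the count was 19 of 23, 82.6% (61.2 to 95.1%). The 5 receptors with the most other barcodes, with a tie at the fifth place, are printed to show which expanded T cell clones occurred in chosen barcodes. The CDR3 is the stretch of the receptor that meets the peptide, and capitals mark its first and last codons, for the conserved cysteine and phenylalanine.
TRBV13-1*02 with TRBJ1-3*01: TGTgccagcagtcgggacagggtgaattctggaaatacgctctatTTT
TRBV12-1*01 with TRBJ1-2*01: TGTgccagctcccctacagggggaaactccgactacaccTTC
TRBV13-1*02 with TRBJ2-5*01: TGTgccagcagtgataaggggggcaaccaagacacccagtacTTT
TRBV4*01 with TRBJ2-7*01: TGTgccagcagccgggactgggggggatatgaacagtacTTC
TRBV1*01 with TRBJ1-1*01: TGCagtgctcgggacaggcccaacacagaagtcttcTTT
TRBV12-1*01 with TRBJ1-2*01: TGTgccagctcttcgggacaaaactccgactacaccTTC
TRBV4*01 with TRBJ2-4*01: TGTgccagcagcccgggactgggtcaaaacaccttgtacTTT
The first of these was the most frequent receptor among the other barcodes, in 326 other barcodes, and it sat in a barcode with 5 UMIs of the 6 genes. The following ones were in 134, 101, 99, 72 and 72 other barcodes, and their own barcodes held 5, 5, 28, 36 and 13 UMIs of the 6 genes. The last, picked after its values were seen, was shared by 3 chosen barcodes with 5 to 110 UMIs of the 6 genes and occurred in 69 others. The barcode with the most UMIs of the 6 genes and a TRB chain held 252, and its receptor, TRBV29*01 with TRBJ2-5*01, was found in 3 others.

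Lyz2 was the most widely spread of the 6 genes. Its counts per chosen barcode ran from 0 to 149 UMIs with a median of 5, and 7 of the 80 had none. The 1881 Lyz2 UMIs made 27.4 per 10000 UMIs (26.2 to 28.7), against 0.0856 in the other barcodes. After each barcode had been thinned to 2000 UMIs, 77.5% of the chosen barcodes kept a Lyz2 UMI and 1.60% of the others did. Nearly all of the others held CD3, and the rule had taken barcodes with 5 or more UMIs of the 6 genes out of them. The source of their Lyz2 UMIs was not tested.

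H2-Aa had the same total, 1881 UMIs, with 0 to 227 per barcode and a median of 4, and 17 barcodes had none. Il1b had 1569 UMIs, from 0 to 154 per barcode with a median of 1, and was seen in 42 barcodes. The C1q genes were weaker, with 359 UMIs of C1qb, 234 of C1qa and 213 of C1qc, and each had a median of 1 and a highest count of 58, 53 and 30. The cytokine was thus concentrated in fewer barcodes than lysozyme or class II.

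These genes did not make up the same mixture in each class. Il1b gave 32.3% of the 3526 six-gene UMIs of the CD3-negative barcodes, 17.3% of the 2435 of the myeloid-high and 3.98% (1.61 to 8.02%) of the 176 of the myeloid-low barcodes. The C1q genes ran the other way, with 8.96%, 17.4% and 37.5% (30.3 to 45.1%). The 421 barcodes with 1 to 4 UMIs, which lie below the limit, had 27.1% (23.5 to 30.9%) C1q and 7.69% (5.65 to 10.2%) Il1b, and Lyz2 gave 47.9% of their 572 UMIs. Lyz2 gave 26.5% in the CD3-negative, 36.2% in the myeloid-high and 36.9% in the myeloid-low barcodes. Since the rule used these genes and the classes were cut by their sum, the mixtures are a description.

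**Figure D2:**
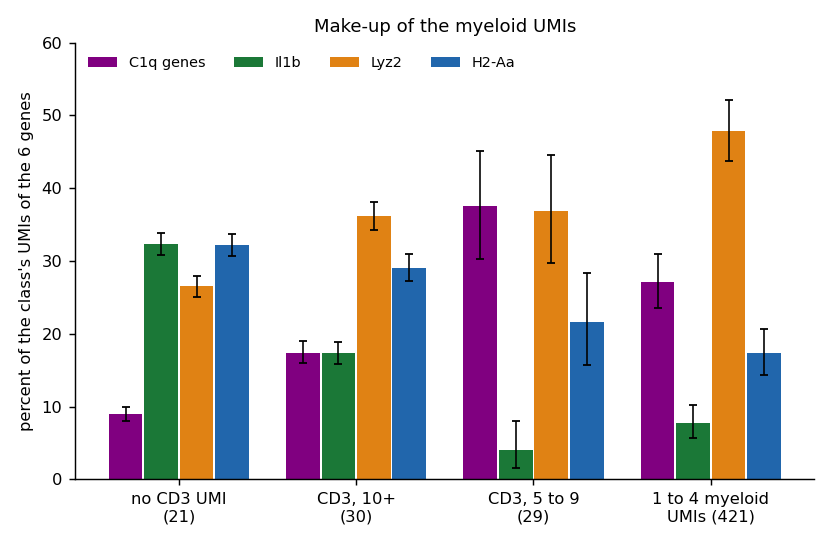
Percent of the 6-gene UMIs (y) that came from the C1q genes, Il1b, Lyz2 and H2-Aa in the 3 classes of chosen barcodes and in the 421 barcodes with 1 to 4 such UMIs (x). Error bars are exact binomial intervals; Il1b takes 32.3% in the CD3-negative barcodes and 3.98% in the myeloid-low ones, while C1q takes 8.96% and 37.5%.

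With 3 UMIs taken as presence, C1q and Il1b occurred together in 20 of the 80 barcodes, C1q without Il1b in 24, Il1b without C1q in 15 and neither in 21. Of the 21 CD3-negative barcodes, 10 had both, 7 had Il1b without C1q, 4 had neither and 0 had C1q without Il1b. Of the 30 myeloid-high barcodes, 10 had both, 10 had C1q without Il1b and 7 had Il1b without C1q. Of the 29 myeloid-low barcodes, which hold 5 to 9 UMIs of the 6 genes in all, 14 had C1q without Il1b, 14 had neither, 1 had Il1b without C1q and 0 had both. Depth differed too: in the myeloid-high barcodes the median was 7432.5 UMIs with C1q and no Il1b and 10056 with both, and its part in the pattern was not tested.

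Genes outside the rule were next compared between the 80 barcodes and the 5253 others. Of 9568 genes with 100 or more UMIs over both, 659 (6.89%) were at least 2-fold higher and 1009 (10.5%) at least 2-fold lower in the chosen barcodes, with a median ratio of 0.894. Many myeloid genes reach 100 UMIs through the chosen barcodes alone (Csf1r had 118 UMIs in them and 7 in the other 5253), so the counts of higher genes in the myeloid lists below describe and do not test.

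Macrophage identity genes were higher in the chosen barcodes. Of 11 such genes, 6 passed the limit of 100 UMIs, and 5 of those were past 2-fold. Summed over the list, the level was 22.0 per 10000 UMIs against 0.281, a ratio of 78.1. Apoe, the lipid carrier apolipoprotein E, had 0 to 61 UMIs per barcode with a median of 1, was seen in 48 barcodes and was at 8.70 (8.01 to 9.42) per 10000 against 0.0503. Csf1r, the receptor for the growth factor on which macrophages depend, had 0 to 10 UMIs, was seen in 36 barcodes and was at 1.72 (1.42 to 2.06). Cd14, a co-receptor for bacterial lipopolysaccharide, was at 6.13 in 38 barcodes. Cd68, a lysosomal membrane protein, was 12.1-fold (9.44 to 15.3) higher. Over the same 80 barcodes the T cell core genes summed to 47.5 per 10000 and 59 barcodes held CD3, so the barcodes are named here by their rule and not as a cell type.

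Within the chosen barcodes the identity genes did not move alike. Apoe was highest in the myeloid-high barcodes, at 15.2 per 10000 against 5.15 in the CD3-negative ones, a ratio of 2.95 (2.39 to 3.68). Cd14 was lower in the myeloid-high than in the CD3-negative barcodes, at 4.10 and 14.3, a ratio of 0.286 (0.229 to 0.355). Ms4a7, a membrane protein of tissue macrophages, had 10 UMIs in all, none of them in a CD3-negative barcode. In the myeloid-low barcodes Apoe was at 2.75 and Cd14 at 0.106.

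**Figure D3:**
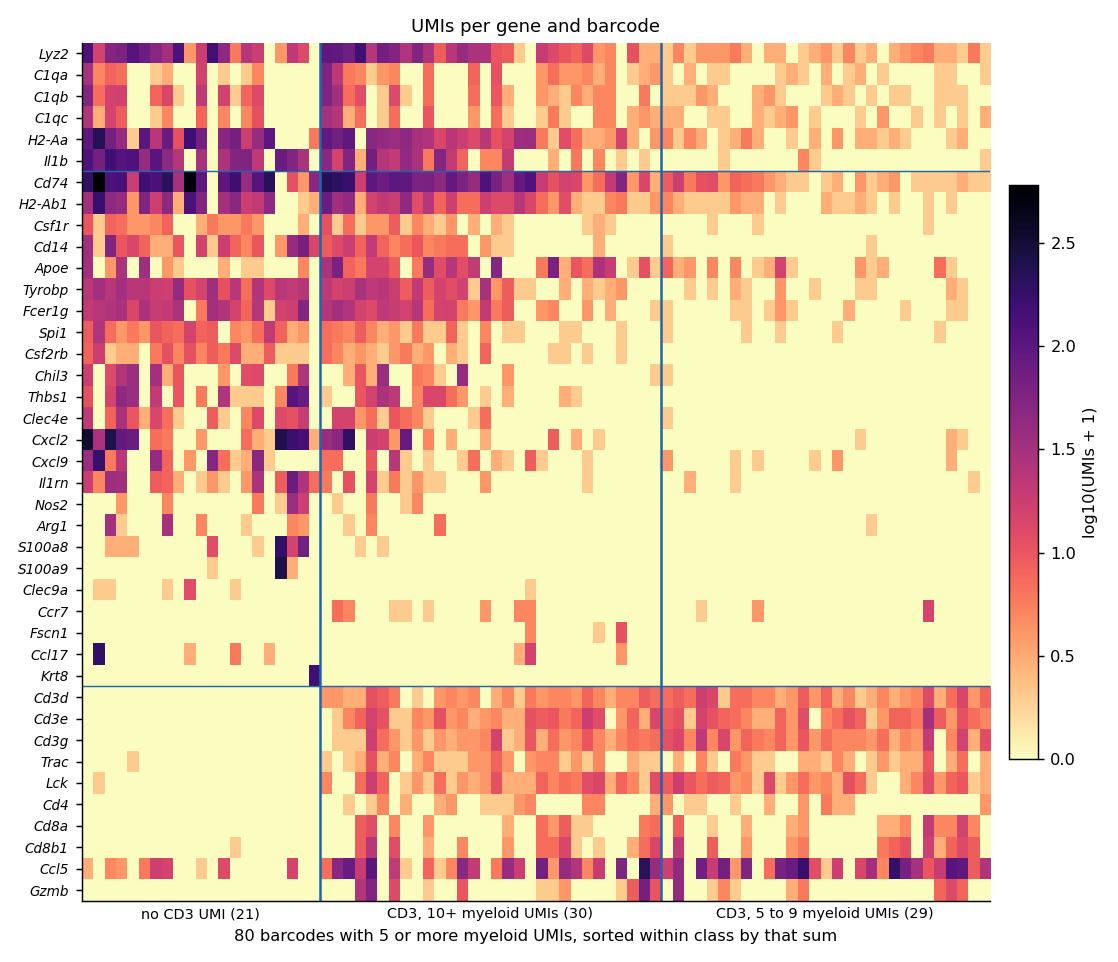
UMIs of 40 genes (y) in each of the 80 chosen barcodes (x) as log10(UMIs + 1), ordered by class (21 CD3-negative, 30 myeloid-high, 29 myeloid-low). Trac and Lck have 1 UMI in the CD3-negative block and the CD3 genes have 0, and the macrophage, class II and cytokine genes weaken towards the myeloid-low block.

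Class II genes were higher as well. Cd74, the invariant chain that guards the class II groove, had 0 to 605 UMIs per barcode with a median of 15.5, was seen in 75 of the 80 barcodes and was at 71.5 (69.5 to 73.5) per 10000 against 0.301, a ratio of 237. H2-Ab1 and H2-Eb1, further chains of the class II molecule, were 511-fold (420 to 626) and 666-fold (537 to 835) higher. All 7 of the 7 genes of the list with 100 or more UMIs were past 2-fold. Ciita, the master regulator of class II genes, had 21 UMIs in 11 barcodes. The list summed to 240.3 per 10000 in the CD3-negative, 109.2 in the myeloid-high and 9.80 in the myeloid-low barcodes, against 1.41 in the others. In the CD3-negative class the median per barcode was 230.2 per 10000, and 1 barcode held 20.3% of the UMIs. The CD3-negative barcodes with the most Cd74, 605 and 522 UMIs, held 1 and 0 UMIs of Csf1r and 0 of Apoe. Class II there was thus not limited to barcodes rich in macrophage identity genes.

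Signals by which such cells instruct T cells were less far apart. Of 9 measured costimulation ligands with enough UMIs, 7 were past 2-fold, with a median ratio of 2.29. Cd86 and Cd80, which engage CD28 on T cells, were 7.20-fold (5.20 to 9.78) and 4.08-fold (2.80 to 5.77) higher, and Cd274, the ligand PD-L1, was 3.50-fold (2.81 to 4.32) higher. T cells also carry Cd274, which was at 0.391 per 10000 in the other barcodes.

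Adaptors and cytokine genes stood further apart. Tyrobp, the signalling adaptor of many myeloid receptors, had 0 to 40 UMIs with a median of 2 and was at 10.3 per 10000 against 0.0191, and Fcer1g, the Fc receptor gamma chain, was 144-fold (124 to 169) higher. Of 6 genes of this list with enough UMIs, 5 were past 2-fold. Of 8 inflammatory mediators, 6 were past 2-fold, with a median ratio of 54.6. Il1rn, the natural antagonist of interleukin 1, was at 12.3 per 10000 in the CD3-negative, 1.56 in the myeloid-high and 0.212 in the myeloid-low barcodes. Ptgs2, the inducible prostaglandin synthase, was at 7.00, 2.81 and 0, and Nlrp3, an inflammasome sensor, at 2.91, 0.869 and 0. Tnf, which T cells make as well, was 4.21-fold (3.44 to 5.12) higher over the 80 barcodes, and Il10 was at 0.0874 against 0.131, a ratio whose interval (0.244 to 1.47) holds 1. Of these mediators, Il1rn, Ptgs2 and Nlrp3 were thus highest where CD3 was absent.

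Chemokine genes showed both common and single-barcode signals. Of 13 with enough UMIs, 11 were past 2-fold higher and 1 was past 2-fold lower. Cxcl2, which draws neutrophils, was seen in 31 barcodes with 0 to 324 UMIs. It was at 64.5 per 10000 in the CD3-negative, 14.5 in the myeloid-high and 0.212 in the myeloid-low barcodes. A few barcodes held much of it. The CD3-negative median was 5 UMIs with 6 barcodes at 0, and a barcode with neutrophil genes held 246. The myeloid-high median was 0, and 1 barcode held 46.6% of that class's Cxcl2 UMIs. Cxcl9, which is induced by interferon gamma and draws activated T cells, was at 19.0, 2.29 and 0.583, and 1 barcode held 36.8% of its UMIs. Cxcl10, of the same family, was 11.2-fold (9.99 to 12.4) higher over the 80 barcodes. Ccl4, which T cells make, had a ratio of 0.987 (0.886 to 1.10). Ccl8, a chemokine of tissue macrophages, was absent from the CD3-negative barcodes, with 16 UMIs in the myeloid-high and 20 in the myeloid-low.

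**Figure D4:**
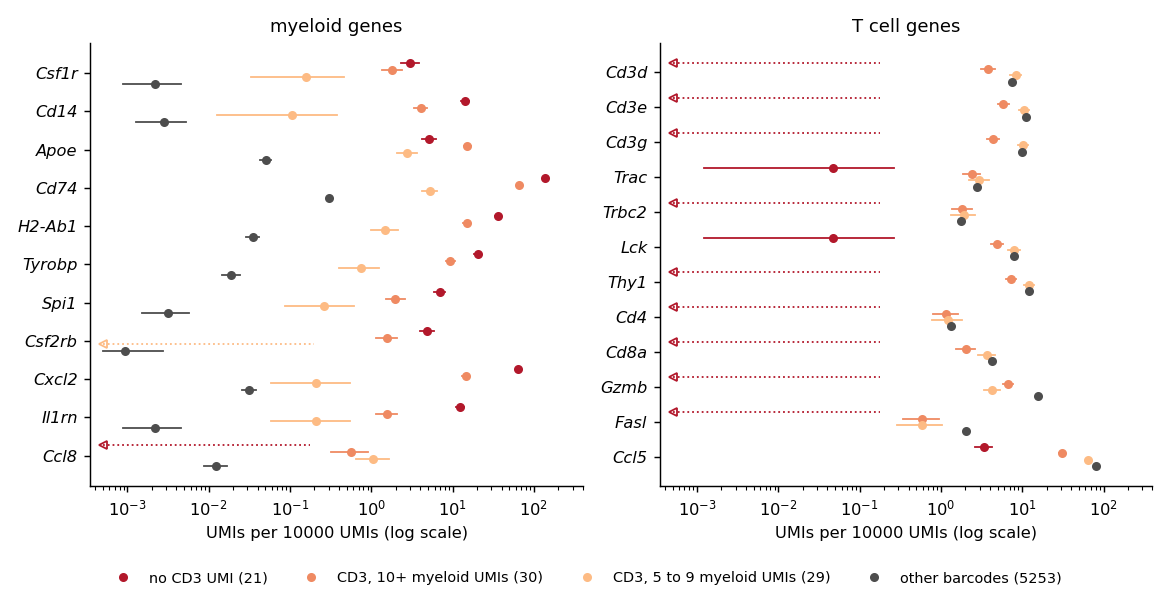
UMIs per 10000 UMIs (log axis) of 11 myeloid and 12 T cell genes in the 3 classes of chosen barcodes and in the other barcodes, with exact Poisson intervals, open arrows marking 0 UMIs with the upper limit. Of the myeloid genes, Csf2rb is at 0 in the myeloid-low and Ccl8 at 0 in the CD3-negative barcodes, and the remaining ones are lowest in the other barcodes. Of the T cell genes, 9 are at 0 and 2 have 1 UMI without CD3, where Ccl5 is at 3.38.

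Monocyte genes were mixed. Of 8 with enough UMIs, 5 were past 2-fold and 3 were not. Thbs1 (thrombospondin 1) was at 17.1 per 10000 in the CD3-negative, 4.13 in the myeloid-high and 0 in the myeloid-low barcodes, and Clec4e, a receptor for mycobacterial glycolipid, at 7.24, 2.29 and 0.0530. Chil3, a secreted chitinase-like protein, was 681-fold higher over the 80. Ccr2, the receptor that brings monocytes out of the marrow, had a ratio of 1.10 (0.898 to 1.33), and T cells carry it as well.

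The machinery of digestion and of iron and lipid handling was also higher. Of 14 lysosomal genes, 11 were past 2-fold with a median ratio of 6.67. Psap, the precursor of sphingolipid activators, was 7.01-fold (6.51 to 7.53) and the protease gene Ctsz 13.6-fold (12.1 to 15.3) higher, while Ctsd had a ratio of 1.06 (0.936 to 1.21). Fth1, the heavy chain of the iron store ferritin, was seen in all 80 barcodes with 7 to 1453 UMIs and a median of 47, and was at 326.7 per 10000 in the CD3-negative, 132.2 in the myeloid-high and 36.9 in the myeloid-low barcodes, against 22.0 in the others. Ftl1, its light chain, was 5.15-fold (4.94 to 5.35) higher. Of 7 iron and lipid genes, 6 were past 2-fold. The scavenger receptor gene Mrc1 had 11 UMIs in 5 barcodes and Cd163, Marco and Timd4 had none, with an upper limit of 0.0537 per 10000 for each.

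Of 9 myeloid transcription factors, 8 were past 2-fold. Spi1, the master regulator PU.1, had 0 to 25 UMIs with a median of 1, was seen in 43 barcodes and was at 6.96 per 10000 in the CD3-negative, 1.98 in the myeloid-high and 0.265 in the myeloid-low barcodes, against 0.00312 in the others. Maf, which macrophages and T cells share, was at 0.238 in the CD3-negative barcodes and at 1.06 in the others.

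Receptors for cytokines that T cells release were read as well. Of 10, 5 were past 2-fold and 5 were not. Csf2rb, the shared beta chain of the receptors for GM-CSF, interleukin 3 and interleukin 5, had 147 UMIs in 36 of the 80 barcodes and 3 UMIs in all 5253 others, a ratio of 2285 (767 to 11208), and was at 4.86 in the CD3-negative, 1.56 in the myeloid-high and 0 in the myeloid-low barcodes. Csf2ra, the GM-CSF alpha chain, was 63.4-fold (47.8 to 84.3) higher. Ifngr1, the interferon gamma receptor chain, had a ratio of 0.522 (0.470 to 0.578), and the other barcodes carried it at 10.3 per 10000. Csf2, the gene for GM-CSF, had 51 UMIs in 5 of the 80 barcodes, and 29 of them were in 1 myeloid-high barcode.

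Genes of the interferon response were mostly within 2-fold. Of 16, 6 were past 2-fold and 10 were not, with a median ratio of 1.36. Isg15, a ubiquitin-like modifier, was 4.38-fold (3.92 to 4.89) higher. None of 6 class I genes was past 2-fold, with a median ratio of 0.975 and 23.97 against 21.8 per 10000 for B2m, the light chain of class I. Of 11 genes that tissue dissociation induces, 4 were past 2-fold, among them Fos at 4.36-fold (3.99 to 4.75) and Atf3 at 10.9-fold (9.24 to 12.8). Fos was at 12.8, 8.83 and 2.12 per 10000 and Atf3 at 6.24, 1.81 and 0.159 in the CD3-negative, myeloid-high and myeloid-low barcodes, and the part of dissociation in the levels was not tested.

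T cell genes were lower in the chosen barcodes, and nearly all of the difference lay in the classes with much myeloid RNA. Summed over 20 T cell core genes, the level was 47.5 per 10000 UMIs against 92.7 in the other barcodes, a ratio of 0.513. Of the 20 genes, 10 were past 2-fold lower and 10 were not, with a median ratio of 0.506. The class ratios were 0.00206 in the CD3-negative, 0.589 (0.560 to 0.619) in the myeloid-high and 0.964 (0.919 to 1.01) in the myeloid-low barcodes. With the rule applied to barcodes thinned to 2000 UMIs, which 47 barcodes met, the list's log2 ratio was -1.73 in place of -0.96. Against other barcodes as deep as the chosen median or deeper, the T cell genes Cd3e, Cd3g, Lat, Cd8b1 and Ccl5 were no longer past 2-fold. Because the first class was set by the absence of Cd3d, Cd3e and Cd3g, those genes say nothing more about it, but the remaining genes were also near 0 there.

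In the CD3-negative barcodes all 20 core genes were past 2-fold lower, where 21.1% of all genes were. A further 18.5% of all genes were counted as past 2-fold higher. That share includes genes with 0 UMIs in these barcodes, because a class at 0 was set to 3 UMIs. Thy1, a surface glycoprotein of mouse T cells, had 0 UMIs in them, and with 0 set to 3 UMIs its level was 84.0-fold below the other barcodes. Lck, the kinase that starts receptor signalling, had 1 UMI in them, a ratio of 0.00599 (0.000152 to 0.0334). Trac, the constant region of the receptor alpha chain, also had 1 UMI, a ratio of 0.0171 (0.000433 to 0.0953). A median of 0 and a maximum of 2 of the 20 genes were seen per CD3-negative barcode, against a median of 14 in the other barcodes. Cd3d, Cd3e and Cd3g are among the 20 and are at 0 by the choice of this class. The whole list had 4 UMIs in 3 of the 21 barcodes. T cell effector genes were not all absent, as Ccl5 had 71 UMIs in 9 of the 21.

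In the myeloid-high barcodes 4 of the 20 core genes were past 2-fold lower and 16 were not, where 10.9% of all genes were lower. The 9.88% of all genes counted as higher include genes with 0 UMIs in this class, which were set to 3 UMIs. Cd3e was at 5.84 per 10000 in them against 11.0 in the others, and Lck was at 4.90 against 7.95, a ratio of 0.616 (0.518 to 0.727). Trac had a ratio of 0.860 (0.669 to 1.09) and Trbc2, a constant region of the beta chain, one of 1.03 (0.771 to 1.35). The median myeloid-high barcode held UMIs of 14 of the 20 T cell core genes and of 4.5 of the 11 macrophage core genes, and 15 of these 30 barcodes had 5 or more genes of each list. No barcode of the other classes and 0 of the 5253 other barcodes reached 5 of both. The classes were cut by CD3 and by UMIs of the 6 genes, and these gene counts were not thinned for depth. The contrast is therefore a description only. A level is a share of a barcode's UMIs, so added RNA of another cell and fewer T cell transcripts cannot be told apart by it.

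In the myeloid-low barcodes none of the 20 core genes was past 2-fold in either direction, where 7.51% of all genes were lower. The 12.9% of all genes counted as higher include genes with 0 UMIs in this class, which were set to 3 UMIs. Cd3e was at 10.4 per 10000, Thy1 at 12.2 (ratio 1.01, interval 0.887 to 1.16) and Lck at 7.89, and the list's median ratio was 0.998. Their T cell core level was thus not told apart from that of the other barcodes by counting error. Their macrophage core genes summed to 4.13 per 10000 against 0.281, but 52 of these 78 UMIs were of Apoe. A macrophage core UMI was seen in 20 of the 29 barcodes, and 1 of 3 core genes with enough UMIs was past 2-fold.

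**Figure D5:**
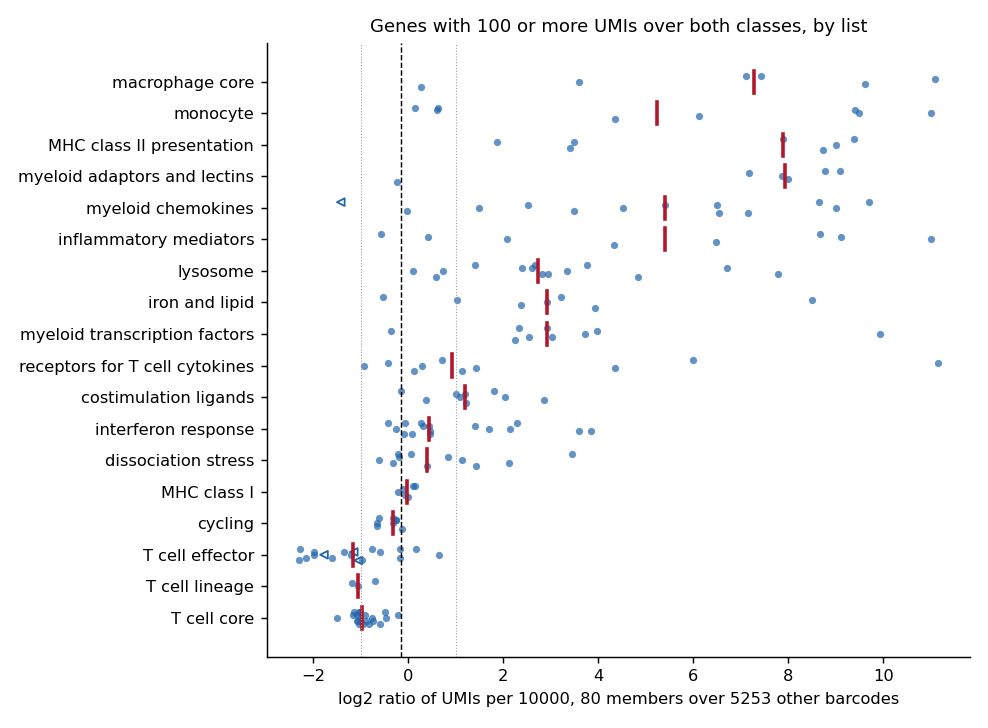
Log2 ratio of the chosen over the other barcodes (x) for each gene with 100 or more UMIs in 18 gene lists (y), with a red bar at each list's median, dotted lines at 2-fold, a dashed line at the median of all genes (-0.16) and open triangles for genes with 0 UMIs in the chosen barcodes, set at 3 UMIs. The macrophage core, class II and chemokine medians lie to the right of the dashed line, and the medians of the 3 T cell lists lie to its left.

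Split by the TCR library in place of CD3, the chosen barcodes gave a similar picture. The 42 barcodes with a productive TRB chain had T cell core genes at 73.6 per 10000, and the 38 without one at 23.4. Macrophage core genes were near each other, at 20.5 (19.0 to 22.1) and 23.3 (21.8 to 25.0), and class II genes were at 65.7 and 174.1. The 38 included all 21 CD3-negative barcodes. The other 17, with CD3 and no productive TRB chain, had T cell core genes at 56.7 and macrophage core genes at 12.9. The median depths were 6593.5 UMIs with and 8470 without a chain.

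Effector genes of T cells were lower over the 80 barcodes as well. Of 18, 11 were past 2-fold lower and 7 were not, with a median ratio of 0.443. In the myeloid-low barcodes 4 were past 2-fold lower, 2 were past 2-fold higher and 12 were not past it, with a median ratio of 0.967. Of the 18 genes, 6 had 0 UMIs in the myeloid-low barcodes and were set to 3 UMIs. Gzmb, the cytotoxic protease granzyme B, had a ratio of 0.254 (0.224 to 0.286) and was at 0 in the CD3-negative, 6.64 in the myeloid-high and 4.24 in the myeloid-low barcodes, against 15.6 in the others. Fasl, a death ligand of killer T cells, had ratios of 0.293 (0.170 to 0.469) and 0.289 (0.144 to 0.517) in the CD3-positive classes. Ccl5, a chemokine of effector T cells, had 0 to 216 UMIs per barcode with a median of 10 and was at 3.38, 30.6 and 64.3 against 80.8. Nkg7, a protein of cytotoxic granules, was at 0.0477, 13.5 and 21.2 against 19.5, and the growth factor gene Areg had a ratio over the 80 barcodes of 1.12 (0.977 to 1.29). Gzmb and Fasl were thus past 2-fold lower in the myeloid-low class as well, where Nkg7 and the core genes were within 2-fold.

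Transcripts of both main kinds of T cell were found in the chosen barcodes. Cd8a, a chain of the class I co-receptor, had a ratio of 0.441 (0.368 to 0.525), its partner chain Cd8b1 one of 0.479 and Cd4, the class II co-receptor, one of 0.614 (0.463 to 0.799). After thinning to 2000 UMIs, 23 of the 80 barcodes (28.8%) had Cd8a or Cd8b1 without Cd4, 12 (15.0%) had Cd4 without these, 1 had both and 44 (55.0%) had neither. In the other barcodes the shares were 45.6%, 21.1%, 1.52% and 31.8%. Of the 30 myeloid-high barcodes, 10 had Cd8 genes alone and 7 had Cd4 alone. UMIs of the 6 genes were thus found beside both kinds, although the sample titles name CD4 T cells. Macrophages can carry Cd4, and in the CD3-negative barcodes it had 0 UMIs.

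Of 8 genes of dividing cells, none was past 2-fold over the 80 barcodes, with a median ratio of 0.797. In the CD3-negative barcodes all 8 were past 2-fold lower, with a median ratio of 0.320. Mki67, a marker of cycling cells, was at 0.905 per 10000 in these, at 3.13 in the myeloid-high and at 1.54 in the myeloid-low barcodes, against 2.19 in the others.

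Some of the strongest signals of the chosen barcodes came from a few of them. Receptor and immunoglobulin segments, mitochondrial and ribosomal protein genes and predicted gene models were left out of this ranking, as were the 6 genes of the rule. Among genes with 100 or more UMIs over both classes and a UMI in 5 or more chosen barcodes, the 12 furthest above the others, by the interval's lower bound, were S100a8, Cd14, Slpi, Il1rn, F10, Clec4e, Lcn2, Csf2rb, Slc7a11, Alox5ap, Cxcl2 and Tgfbi. S100a8, a calcium-binding protein of neutrophils, was seen in 10 barcodes and 1 of them held 63.9% of its UMIs, and Lcn2, an iron-trapping protein of neutrophils and epithelium, had 95.9% in 1. Slpi, a protease inhibitor, was seen in 19 barcodes with 58.6% in 1. Without the limit of 5 barcodes, the 12 furthest below by the upper bound were Gzmf, Gzmb, Gzma, Fasl, Ccr8, Actn2, Il17a, Gimap8, S1pr1, Parn, Serpinb1a and Ccl5, and Gzmf, Il17a and Parn had 0 UMIs in the 80 barcodes against 622, 479 and 451 in the others. Of these, Gzma had 58.3% of its UMIs in 1 chosen barcode.

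Single barcodes carried genes of cells other than macrophages. A CD3-negative barcode with 77 Il1b UMIs had 186 of S100a8, 259 of S100a9 and 70 of Retnlg, all genes of neutrophils, and no H2-Aa. Another with 154 H2-Aa UMIs had 11 of Clec9a, 4 of Xcr1 and 4 of Flt3, which mark dendritic cells that take up dead cells, with 3 of Lyz2 and 0 of Csf1r. The CD3-negative barcode with 5 UMIs of the 6 genes, all of H2-Aa, had 155 of Krt8, 61 of Krt18, 21 of Epcam and 395 of Lcn2, genes of epithelium. A myeloid-high barcode with 36 H2-Aa UMIs had 4 of Ccr7, 4 of Fscn1 and 14 of Ccl17, genes of migrating dendritic cells, beside 24 CD3 UMIs. Another myeloid-high one with 14 H2-Aa UMIs had 10 of Fscn1, 3 of Ccl17 and 0 of Lyz2. The CD3-negative barcode with 605 Cd74 UMIs had 187 of Ccl17. A CD3-negative barcode with 95 H2-Aa UMIs had 0 of Lyz2, Il1b, Csf1r, Cd14 and Apoe. These are examples and not a full count, and the class levels above include such barcodes.

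Over the lists of other cell types, neutrophil genes had 5 of 5 genes past 2-fold and a summed ratio of 16.4 (15.4 to 17.5), but 44.4% of their UMIs in 1 barcode, with a median of 0.923 and a highest level of 1401.1 per 10000 UMIs in a barcode. Epithelial genes had 3 of 4 past 2-fold with 94.6% in 1 barcode, and 2 of 3 conventional dendritic cell genes were past 2-fold. Of these, Ccr7 was not past 2-fold without its top barcode. That barcode was a myeloid-low one with 14 Ccr7, 62 CD3 and 0 H2-Aa UMIs. The plasmacytoid dendritic cell list had 104 UMIs in 47 of the 80 barcodes, a ratio of 1.64 (1.34 to 1.995), with 1 of 2 genes past 2-fold. Its UMIs were 88 of Bst2, which interferon induces in many cells, and 16 of Tcf4, while its marker Siglech was at 0. Endothelial genes had 21 UMIs in 19 barcodes (ratio 0.862, interval 0.532 to 1.32), natural killer cell genes had 13 UMIs (ratio 0.947, interval 0.502 to 1.63), and B and plasma cell genes had 28 (ratio 0.685, interval 0.454 to 0.994), with no gene of these lists past 2-fold. Of their defining markers, Cdh5, Ncr1, Cd79a and Ms4a1 were at 0 UMIs, as were Muc2 of goblet cells and Dcn of fibroblasts. Fibroblast genes had 2 UMIs, erythroid genes had 0, eosinophil genes had 3 and mast cell and basophil genes had 5, all of the latter of Kit. Igkc, an immunoglobulin light chain of plasma cells, had 19 UMIs in the 80 barcodes and 1542 in the others.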

How the data were processed

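UMI counts per gene and barcode of 1 RNA library and a table of TCR contigs of the same cDNA were used as the authors deposited them. Cell Ranger and mm10 are named per the submitters' processing notes, without a version. Barcodes with 500 or more genes and at most 10% mitochondrial UMIs were kept, no doublets were removed, and contigs were joined to cells by barcode. Levels are UMIs per 10000 UMIs, summed over the barcodes of a class, with exact Poisson intervals. Ratios of 2 classes have exact conditional binomial intervals, and a class at 0 was set to 3 UMIs. Genes with 100 or more UMIs over both classes were counted as past the fold at a ratio of 2 or 0.5. In the 3 classes of chosen barcodes this counted some genes without a UMI there as higher. Shares of barcodes with a UMI were taken after thinning to 2000 UMIs. No test was run, since 1 pool has no replicates. The barcodes and the 32 gene lists were chosen with earlier results of these data known. Named are the 6 genes of the rule, up to 6 genes of a list by UMIs (in the chosen barcodes for myeloid lists, in the others for T cell lists), defining markers of other cell types, the 12 highest (with a UMI in 5 or more chosen barcodes) and 12 lowest ratios by the interval bound nearest 1, and up to 5 clonotypes by number of other barcodes. The few further genes and the single barcodes described were picked after their values were seen. The interval and thinning code was tested on simulated data. Computation used Python 3.11.15 with scipy 1.17.1, numpy 2.4.6 and pandas 2.3.3, and plots used matplotlib 3.10.9. A few items of the lists are not reported here.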

Additional observations from a re-analysis of the deposited data

How the results depend on the processing

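With 3 or more UMIs the log2 ratio of the T cell core list was -0.66, that of the macrophage core list 5.95, and 533 genes were lower. With 10 or more, 50 barcodes remained in the choice, the log2 ratios were -1.53 and 6.55, and 1546 genes were lower. With the rule on thinned barcodes the values were 47, -1.73, 6.63 and 1738. Without Lyz2 in the rule the T cell and macrophage log2 ratios were -1.21 and 6.45, without H2-Aa -1.02 and 6.42, and without the C1q genes the T cell value was -1.20. Against other barcodes of the chosen median depth or more they were -0.78 and 6.57, and against others with no UMI of the 6 genes the macrophage value was 6.44. With each barcode weighted alike the T cell value was -0.75. In the CD3-positive barcodes alone, a choice made after seeing the data, the values were -0.44 and 6.01, and in the CD3-negative alone the macrophage value was 6.76. Leaving out the top barcode of each gene gave 1603 genes lower, which follows in part from its construction. It turned the log2 ratio of Krt18 to -0.73. Of 92 checked genes past 2-fold in either direction, 86 stayed so. Besides Krt18, those that did not were Ccr7, Cd70, Fabp5, Il1r2 and Kit. Fabp5 was also no longer past 2-fold against other barcodes of the chosen median depth or more. A limit of 50 UMIs gave 1011 genes higher, and one of 400 gave 244 higher and 532 lower, since fewer genes were counted. Any TRB contig was found in 66.25% and a TRB contig or Trbc UMI in 71.25% of the chosen barcodes, and the productive TRB share ran down to 42.55%, with the rule on thinned barcodes. CD3-negative barcodes numbered 18 to 25 over 11 alternatives. The cause of the other shifts was not tested. No paired analysis was possible because there was 1 pool and no test. Intervals cover counting error only, and genes with few UMIs in the 80 barcodes were not resolved at this depth.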
